A study of Mus musculus with 9 samples.

Results

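The 10 immediate early response genes Fos, Fosb, Jun, Junb, Atf3, Egr1, Egr2, Egr3, Nr4a1 and Ier2 were followed in the skin of mice that had received repeated ultraviolet B (UVB). They were found by symbol among the 57180 genes of the count table, each in 1 entry, and all 10 were among the 17168 genes with enough counts to be tested. In UVB-Saline skin all 10 had a lower fitted level than in NoUVB skin, with a median log2 difference of -0.55, against 0.01 over all tested genes. In UVB-hCOL3A1 skin all 10 also lay below NoUVB, with a median of -0.63, against -0.01 over all tested genes. None of the 10 passed an adjusted p of 0.05 in edgeR's quasi-likelihood test in either comparison, and the 2 comparisons share the NoUVB libraries.

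The animals were BALB/c nude mice, an inbred strain that lacks a thymus and mature T cells and has sparse hair, so every group shares these traits. UVB-Saline mice were irradiated on the back on alternate days for 8 weeks and given saline. UVB-hCOL3A1 mice had the same irradiation and were given hCOL3A1, which the series title ties to mRNA delivery of human type III collagen. The irradiation began at 60 mJ/cm2 (1 minimal erythemal dose, the smallest dose that reddens skin) and ended at 240 mJ/cm2 (4 minimal erythemal doses). NoUVB mice were not irradiated, and no saline is named for them. The sources used here give no dose, carrier or route of hCOL3A1, no age of the mice and no interval between the last irradiation and collection, and place collection at day 28 of an unstated count. Each group had 3 libraries, and no source ties a library to an animal. The p-values therefore rest on how far these samples differ among themselves, part of which may be technical.

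Immediate early genes are switched on within minutes of a stimulus, before any new protein is made, because the factors that drive them, such as SRF with ETS-family partners and CREB, already sit in the cell and are activated by kinases. Most encode transcription factors, and their mRNAs and proteins are short-lived. FOS, JUN and ATF proteins pair through leucine zippers to form AP-1, a factor that in UV-exposed skin is known to act on matrix metalloproteinase genes. The same genes answer growth factors, stress hormones, wounding and the handling of tissue.

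Total estimated counts were 7640170 to 12927400 per library, of which the ribosomal gene Rn18s-rs5 took 7.71% in NoUVB 2 and 34.3% to 55.3% in the other 8. Levels are given as CPM (counts scaled to a common library size), adjusted by TMM, a factor that aligns the bulk of genes between libraries. UVB-Saline 3 and UVB-hCOL3A1 3 stood apart from the other 7 on the first principal component of all tested genes, at 55.0 and 39.8, against -33.5 to 10.05. Markers of keratinocytes, fibroblasts, endothelium, smooth and skeletal muscle, adipocytes, macrophages, mast cells, hair and Schwann cells were detected in every library. Of 5 neutrophil markers, 1 was at 0 in all libraries and 2 were at 0 in some. Fewer cells of a type and less RNA per cell cannot be told apart in such bulk tissue. The 10 genes held 31 to 2074 estimated counts each per library.

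Upstream sequences of 7 of the 10 genes were matched in RefSeq (build GRCm38.p6). They are shown because the 10 genes lay on the same side of NoUVB and because early genes are known targets of CREB, which binds the short motif TGACG, and of SRF, which binds the CArG box. Egr1, Egr3 and Ier2 were not matched. The windows are chr12:85473755-85473889 for Fos (plus strand), chr7:19310046-19310180 for Fosb (minus strand), chr4:95052223-95052357 for Jun (minus strand), chr8:84978749-84978883 for Junb (minus strand), chr1:191183334-191183468 for Atf3 (minus strand), chr10:67537734-67537868 for Egr2 (plus strand) and chr15:101266711-101266845 for Nr4a1 (plus strand). Each runs 5′ to 3′ on the gene's strand through the bases next to the start site and ends at the last one before it, and capitals mark TGACG on either strand (read CGTCA on the other) and the CArG box. For Egr2, 1 of 5 listed starts is shown.
Fos: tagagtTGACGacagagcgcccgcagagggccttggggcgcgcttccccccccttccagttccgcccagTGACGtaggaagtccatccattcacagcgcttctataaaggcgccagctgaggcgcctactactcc
Fosb: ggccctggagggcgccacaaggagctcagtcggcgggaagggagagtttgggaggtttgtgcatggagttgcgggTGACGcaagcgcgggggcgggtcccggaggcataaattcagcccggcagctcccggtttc
Jun: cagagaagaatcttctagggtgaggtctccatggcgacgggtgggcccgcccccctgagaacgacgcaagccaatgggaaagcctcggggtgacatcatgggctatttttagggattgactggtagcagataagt
Junb: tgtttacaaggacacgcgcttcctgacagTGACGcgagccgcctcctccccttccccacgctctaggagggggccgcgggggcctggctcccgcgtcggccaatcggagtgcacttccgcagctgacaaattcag
Atf3: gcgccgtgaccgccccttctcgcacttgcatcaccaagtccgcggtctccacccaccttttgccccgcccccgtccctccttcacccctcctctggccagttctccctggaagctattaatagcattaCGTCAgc
Egr2: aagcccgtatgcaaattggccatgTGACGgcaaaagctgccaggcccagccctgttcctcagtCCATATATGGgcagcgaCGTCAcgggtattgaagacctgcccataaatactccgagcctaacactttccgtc
Nr4a1: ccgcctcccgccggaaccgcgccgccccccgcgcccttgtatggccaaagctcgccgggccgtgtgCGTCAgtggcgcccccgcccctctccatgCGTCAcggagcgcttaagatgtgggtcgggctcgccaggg

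TGACG, searched on both strands in the window of 250 bases before to 50 after each start, was present in 8 of the 11 promoters listed for the 7 genes, against 20.8% of all 32851 promoters. Egr2 has 5 of the 11, some of which overlap and hold the same sites. Counted by gene 6 of the 7 had a match, all but Jun. The full CREB palindrome TGACGTCA, which contains TGACG, was in 0 of the 11, against 1.79% of all promoters, and the AP-1 motif TGANTCA was also in 0, against 7.81%. The EGR motif GCGNGGGCG was in 2 of the 11, those of Fosb and Nr4a1, against 5.55% of all promoters. The CArG box was in 4 of the 11, all of Egr2 and so in 1 of the 7 genes, against 1.63%. The TATAAA motif of core promoters was in 2 of the 11, those of Fos and Junb, against 13.6%. It began at base -33 in Fos but at base 1, the start site itself, in Junb, and so outside the sequence shown. These matches describe letters in a fixed window and say nothing of binding, and sites farther upstream lie outside it.

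Levels were compared between genes per kilobase of merged exon. In NoUVB skin the order was Egr1 at 39.0 ± 5.0 CPM per kb, Fos at 38.8 ± 25.3, Junb at 30.7 ± 6.65, Jun at 28.2 ± 2.42 and Ier2 at 21.1 ± 1.22, followed by Egr3 at 13.6 ± 1.23, Egr2 at 7.73 ± 0.66, Fosb at 6.89 ± 5.45, Nr4a1 at 4.90 ± 1.52 and Atf3 at 4.01 ± 1.79 (SD, n = 3). Neighbours in that order did not overlap at 3 of 9 steps, namely Jun above Ier2, Ier2 above Egr3, and Egr3 above Egr2. At the other 6 steps, from Egr1 down to Jun and from Egr2 down to Atf3, each gene overlapped its neighbour. In UVB-Saline skin Junb was highest at 25.8 ± 4.51 CPM per kb and Fosb lowest at 2.16 ± 1.26, and in UVB-hCOL3A1 skin Jun was highest at 22.7 ± 2.93 and Fosb lowest at 2.28 ± 0.91 (SD, n = 3). Neighbours overlapped at 7 of 9 steps in each of these groups. Among these steps were Junb with Egr1 in UVB-Saline, Jun with Egr1 in UVB-hCOL3A1, and Nr4a1 with Fosb in both.

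Fos and Fosb encode partners that form AP-1 with JUN proteins and cannot pair with themselves in the way JUN can. Fos had 45.2, 34.9 and 36.1 CPM in UVB-Saline skin and 54.8, 16.6 and 34.3 CPM in UVB-hCOL3A1 skin, against 67.6, 47.5 and 159 CPM in NoUVB skin. Every UVB-Saline library lay below every NoUVB library, 1 UVB-hCOL3A1 library lay above the lowest NoUVB library, and NoUVB 3 was far above all others. Fosb had 22.0, 6.49 and 12.03 CPM in UVB-Saline skin and 20.1, 8.75 and 13.8 CPM in UVB-hCOL3A1 skin, against 23.9, 22.9 and 82.3 CPM in NoUVB skin. The 6 irradiated libraries were below the 3 NoUVB libraries, but the highest irradiated one was close to the lowest of these, and NoUVB 3 was again the outlying one.

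The log2 difference of Fos in UVB-Saline skin against NoUVB skin was -1.24 ± 0.54 (SE, edgeR adjusted p = 0.545), and that of Fosb was -1.69 ± 0.66 (adjusted p = 0.497), in edgeR's quasi-likelihood test. In UVB-hCOL3A1 skin against NoUVB skin the same test gave -1.37 ± 0.55 for Fos (edgeR adjusted p = 0.391) and -1.60 ± 0.66 for Fosb (adjusted p = 0.406). Both sizes rested in large part on NoUVB 3. Without it, Fos was at -0.58 ± 0.43 in UVB-Saline skin and -0.69 ± 0.43 in UVB-hCOL3A1 skin, and Fosb was at -0.81 ± 0.50 and -0.70 ± 0.50 in these 2 groups, each against NoUVB.

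Jun, the AP-1 subunit that pairs with itself as well as with FOS proteins and is activated by the UV-responsive kinase JNK, varied least of the 10. Jun had 81.4, 69.1 and 69.3 CPM in UVB-Saline skin and 82.0, 71.4 and 63.4 CPM in UVB-hCOL3A1 skin, against 83.4, 87.8 and 98.4 CPM in NoUVB skin. No irradiated library reached the NoUVB range, though UVB-Saline 1 and UVB-hCOL3A1 1 came close to it. The log2 difference was -0.30 ± 0.12 in UVB-Saline skin and -0.31 ± 0.12 in UVB-hCOL3A1 skin against NoUVB (SE, edgeR adjusted p = 0.484 and 0.340). Junb, a weaker activator that can hold JUN activity in check, had 60.7, 48.3 and 68.9 CPM in UVB-Saline skin and 43.3, 41.8 and 49.8 CPM in UVB-hCOL3A1 skin, against 68.0, 56.9 and 87.1 CPM in NoUVB skin. UVB-Saline overlapped NoUVB, with a log2 difference of -0.25 ± 0.17 (edgeR adjusted p = 0.688), while all 3 UVB-hCOL3A1 libraries lay below it, at -0.65 ± 0.17 (edgeR adjusted p = 0.194). Without NoUVB 3 these 2 differences were -0.08 and -0.46.

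Atf3, a stress-induced member of the ATF family that often acts as a repressor, was the least abundant of the 10 per kilobase in NoUVB skin. It had 3.18, 6.25 and 7.59 CPM in UVB-Saline skin and 7.32, 4.14 and 10.3 CPM in UVB-hCOL3A1 skin, against 6.68, 6.16 and 13.1 CPM in NoUVB skin. The 3 groups overlapped. The log2 difference was -0.61 ± 0.43 in UVB-Saline skin and -0.27 ± 0.42 in UVB-hCOL3A1 skin against NoUVB (SE, edgeR adjusted p = 0.704 and 0.845). Without NoUVB 3 it was -0.19 in UVB-Saline skin and 0.18, the opposite sign, in UVB-hCOL3A1 skin, which was also 0.01 without UVB-hCOL3A1 2.

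**Figure D1:**
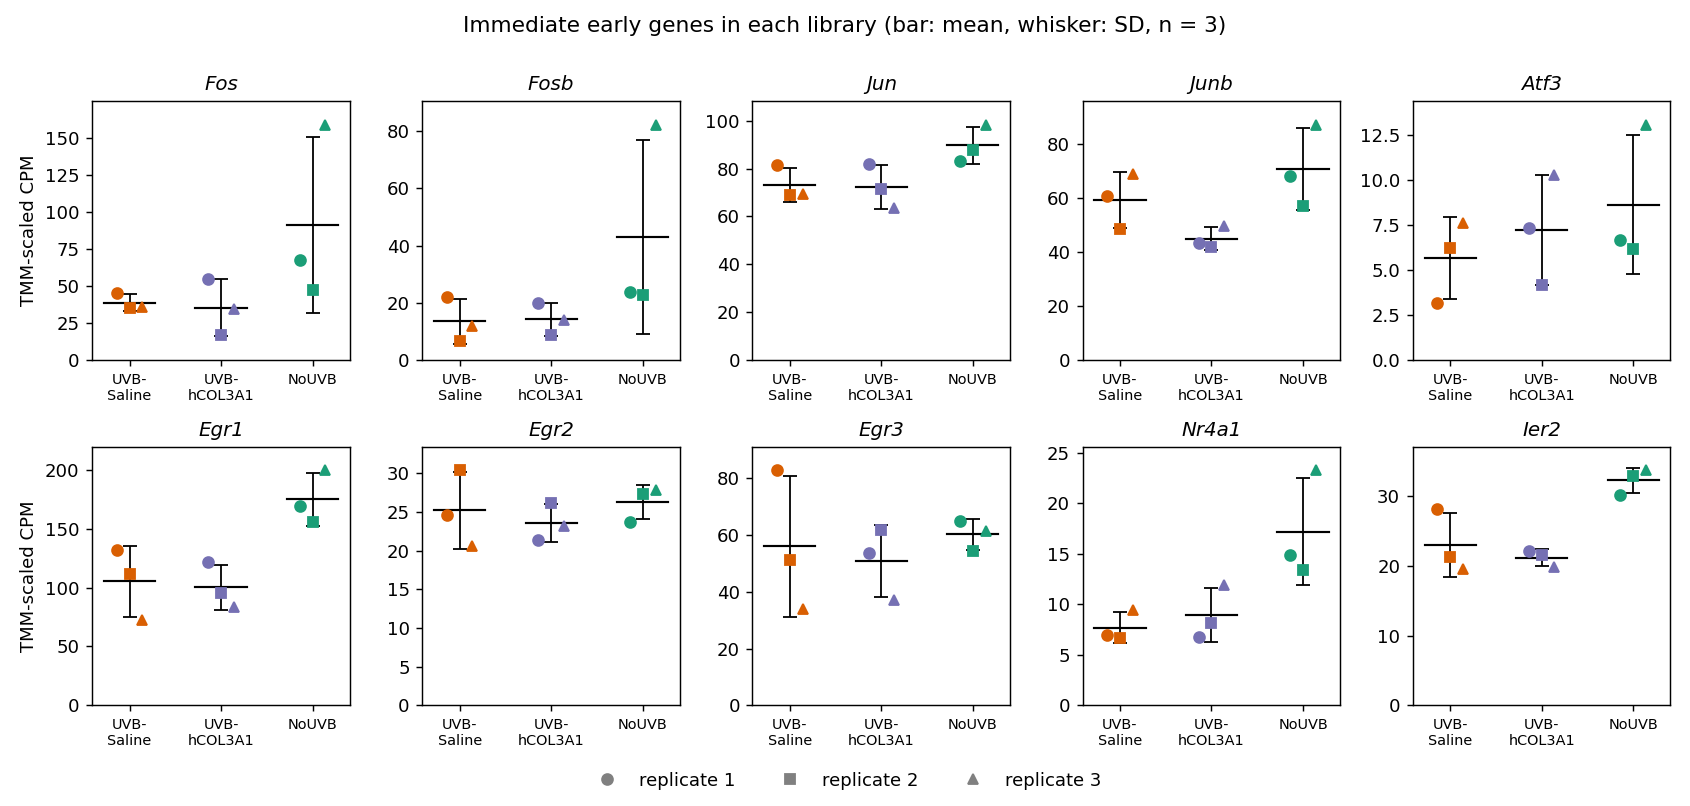
TMM-scaled CPM of each of the 10 genes on a linear axis from 0, with 1 panel a gene. Points are libraries of UVB-Saline, UVB-hCOL3A1 and NoUVB skin (3 each), and lines with bars are the mean and SD. The highest point is a NoUVB library for 8 of the 10 genes, and the NoUVB spread is widest for Fos, at 47.5 to 159 CPM, and Fosb, at 22.9 to 82.3 CPM.

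The EGR genes encode zinc finger factors that bind GC-rich sites and answer growth factor signalling. Egr1 had 131, 112 and 72.7 CPM in UVB-Saline skin and 121, 95.1 and 83.7 CPM in UVB-hCOL3A1 skin, against 169, 156 and 199 CPM in NoUVB skin. All 6 irradiated libraries lay below the 3 NoUVB libraries with a clear gap. The log2 difference of Egr1 was -0.73 ± 0.22 in UVB-Saline skin and -0.80 ± 0.22 in UVB-hCOL3A1 skin against NoUVB (SE, edgeR adjusted p = 0.360 and 0.205). Without NoUVB 3 it was -0.63 in UVB-Saline skin and -0.69 in UVB-hCOL3A1 skin.

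Egr2 and Egr3 did not share that separation. Egr2 had 24.6, 30.4 and 20.6 CPM in UVB-Saline skin and 21.3, 26.2 and 23.2 CPM in UVB-hCOL3A1 skin, against 23.7, 27.3 and 27.8 CPM in NoUVB skin. Egr3 had 82.6, 51.2 and 33.8 CPM in UVB-Saline skin and 53.7, 61.5 and 37.0 CPM in UVB-hCOL3A1 skin, against 64.9, 54.2 and 61.2 CPM in NoUVB skin. For both genes the groups overlapped and a UVB-Saline library was the highest of the 9. The log2 differences in UVB-Saline skin against NoUVB were -0.06 ± 0.15 for Egr2 and -0.10 ± 0.30 for Egr3 (SE, edgeR adjusted p = 0.935 and 0.945). They turned to 0.05 and 0.15 without UVB-Saline 3, the library in which both genes were lowest. In UVB-hCOL3A1 skin against NoUVB the differences were -0.16 ± 0.15 for Egr2 and -0.24 ± 0.30 for Egr3 (edgeR adjusted p = 0.722 and 0.802). Whether Egr1 differed from Egr2 and Egr3 in its response was not tested.

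Nr4a1 encodes an orphan nuclear receptor, also called NUR77. It had 6.98, 6.66 and 9.43 CPM in UVB-Saline skin and 6.79, 8.19 and 11.9 CPM in UVB-hCOL3A1 skin, against 14.9, 13.4 and 23.3 CPM in NoUVB skin. The 6 irradiated libraries were all below the NoUVB range. The level in UVB-Saline skin was 0.445 of that in NoUVB skin, a log2 difference of -1.17 ± 0.27 (SE, unadjusted p = 0.00132, edgeR adjusted p = 0.272), and the level in UVB-hCOL3A1 skin was 0.516 of it, a log2 difference of -0.96 ± 0.26 (edgeR adjusted p = 0.205). Without NoUVB 3 the log2 differences were -0.89 in UVB-Saline skin and -0.66 in UVB-hCOL3A1 skin.

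Ier2, a small nuclear protein without a classical DNA-binding domain, had 28.1, 21.2 and 19.5 CPM in UVB-Saline skin and 22.1, 21.5 and 19.8 CPM in UVB-hCOL3A1 skin, against 30.1, 32.8 and 33.7 CPM in NoUVB skin. The NoUVB libraries were close to each other and above all 6 irradiated ones. The log2 difference was -0.49 ± 0.14 in UVB-Saline skin and -0.61 ± 0.14 in UVB-hCOL3A1 skin against NoUVB (SE, edgeR adjusted p = 0.353 and 0.162). Without NoUVB 3 these were -0.47 and -0.56, so this gene moved little with that library.

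In the comparison of UVB-Saline with NoUVB, 0 of the 10 genes passed an adjusted p of 0.05 in edgeR, against 0.0175% of all tested genes. At an unadjusted p under 0.05 the count was 5 lower and 0 higher (Fosb, Jun, Egr1, Nr4a1 and Ier2), against 4.6% of tested genes lower and 4.93% higher. The groups did not overlap, with UVB-Saline lower, for 6 of the 10, which adds Fos, against 6.61% of tested genes. limma voom also called 0 of the 10, and DESeq2 called Nr4a1 among 100 genes in all (adjusted p = 0.0204, with 0.0125 to 0.521 over all alternatives).

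In the comparison of UVB-hCOL3A1 with NoUVB, edgeR called 0 of the 10, against 0.0408% of all tested genes. The count at an unadjusted p under 0.05 was 7 lower and 0 higher, against 5.52% of tested genes lower and 6.29% higher, and left out only Atf3, Egr2 and Egr3. Groups did not overlap, with UVB-hCOL3A1 lower, for 6 (Fosb, Jun, Junb, Egr1, Nr4a1 and Ier2), against 10.7% of tested genes. limma voom called 0 of the 10, and DESeq2 called Junb, Egr1 and Ier2 (adjusted p = 0.0488, 0.031 and 0.0323) among 269 genes in all. Over all alternatives the adjusted p of Junb was 0.031 to 0.556, that of Egr1 0.0227 to 0.479 and that of Ier2 0.0142 to 0.581. Leaving out UVB-Saline 3, which is in neither group compared but enters the shared estimate of spread, led edgeR to call Egr1 and Ier2 (adjusted p = 0.0309 and 0.0483). Leaving out UVB-Saline 1 led it to call Ier2. With 1 library left out, edgeR called 0 to 242 genes in all in this comparison.

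**Figure D2:**
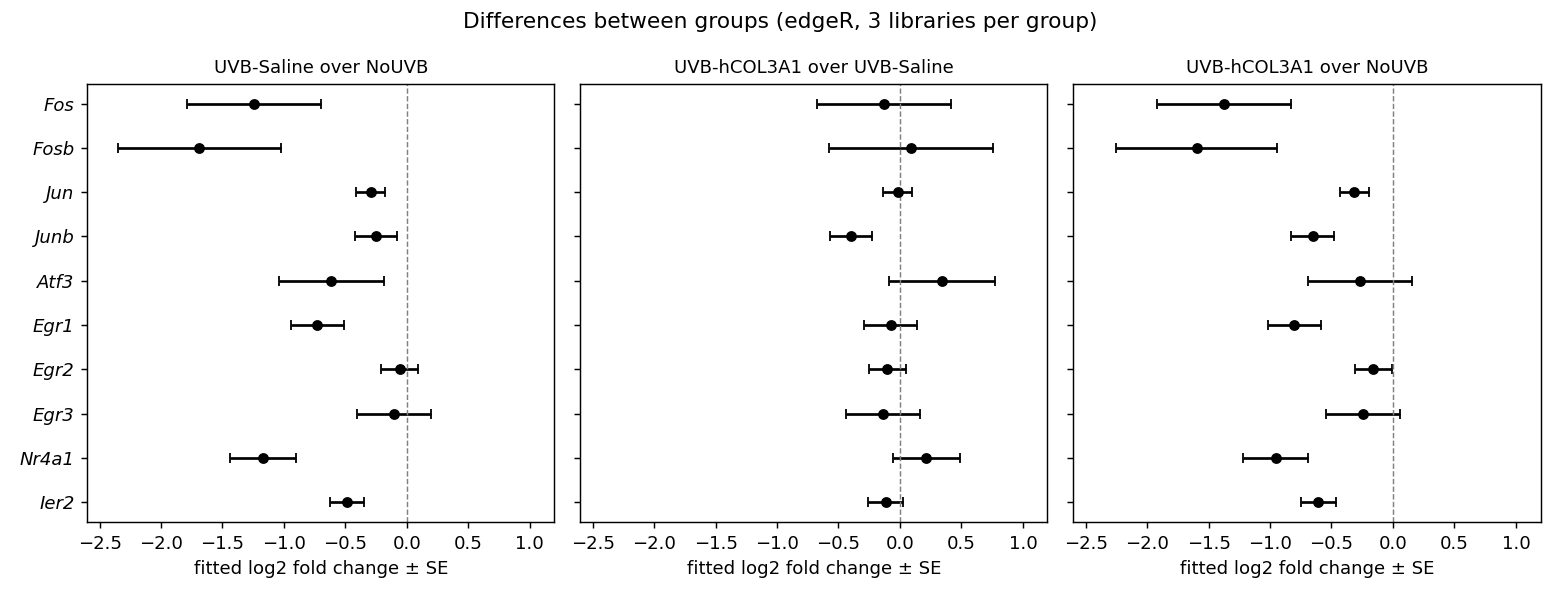
Fitted log2 difference of each gene with bars of 1 SE, in 3 panels for UVB-Saline over NoUVB, UVB-hCOL3A1 over UVB-Saline and UVB-hCOL3A1 over NoUVB. Against NoUVB all 10 points lie left of 0 in both panels, at -1.69 to -0.06 for UVB-Saline and -1.60 to -0.16 for UVB-hCOL3A1, while between the irradiated groups they lie on both sides of 0, at -0.40 to 0.34.

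The comparison of UVB-hCOL3A1 with UVB-Saline asks whether the treatment altered these genes in irradiated skin. Their fitted levels were close, with 3 of the 10 genes above 0 and 7 below, and a median log2 difference of -0.09, against -0.02 over all tested genes. edgeR called 0 of the 10 and 0% of all tested genes, and limma voom and DESeq2 also called 0 of the 10. Groups overlapped for all 10 genes, against 17.3% of tested genes whose groups did not overlap. Only Junb had an unadjusted p under 0.05, with a log2 difference of -0.40 (95% interval -0.78 to -0.02, edgeR adjusted p = 0.426), against 11.3% of tested genes in either direction. It was -0.26 without UVB-Saline 3, the UVB-Saline library with the most Junb.

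The intervals of the other genes show what size of difference these libraries leave possible. That of Jun was -0.28 to 0.24 on the log2 scale around -0.02, and that of Ier2 was -0.43 to 0.19 around -0.12. Egr1 and Egr2 had intervals of -0.56 to 0.41 and -0.43 to 0.23. Fos and Fosb were far less precise, at -1.41 to 1.15 and -1.48 to 1.66, so a difference of 1 log2 unit in either direction lies within both intervals. Atf3 at -0.63 to 1.32, Nr4a1 at -0.39 to 0.82 and Egr3 at -0.83 to 0.55 lay between these. For 8 of the 9 genes other than Junb the sign of the difference turned when 1 library was left out, the exception being Atf3.

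The 10 genes differed in how much replicate libraries of a group varied. The pooled within-group SD on the log2 scale was 0.85 for Fosb, 0.73 for Fos and 0.62 for Atf3, which exceeded that of 96.8%, 94.8% and 91.5% of tested genes, where the median gene had 0.25. It was 0.15 for Jun, 0.17 for Ier2 and 0.20 for Egr2, below the median gene. Egr3, Nr4a1, Egr1 and Junb lay between, at 0.44, 0.37, 0.32 and 0.24. The lowest counts of Fos and Fosb in any library were 176 and 79, against 180 for Ier2. Within NoUVB the highest library had 3.35 times the Fos and 3.60 times the Fosb of the lowest, while within UVB-hCOL3A1 the ratio for Fos was 3.31 and within UVB-Saline that for Fosb was 3.38.

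**Figure D3:**
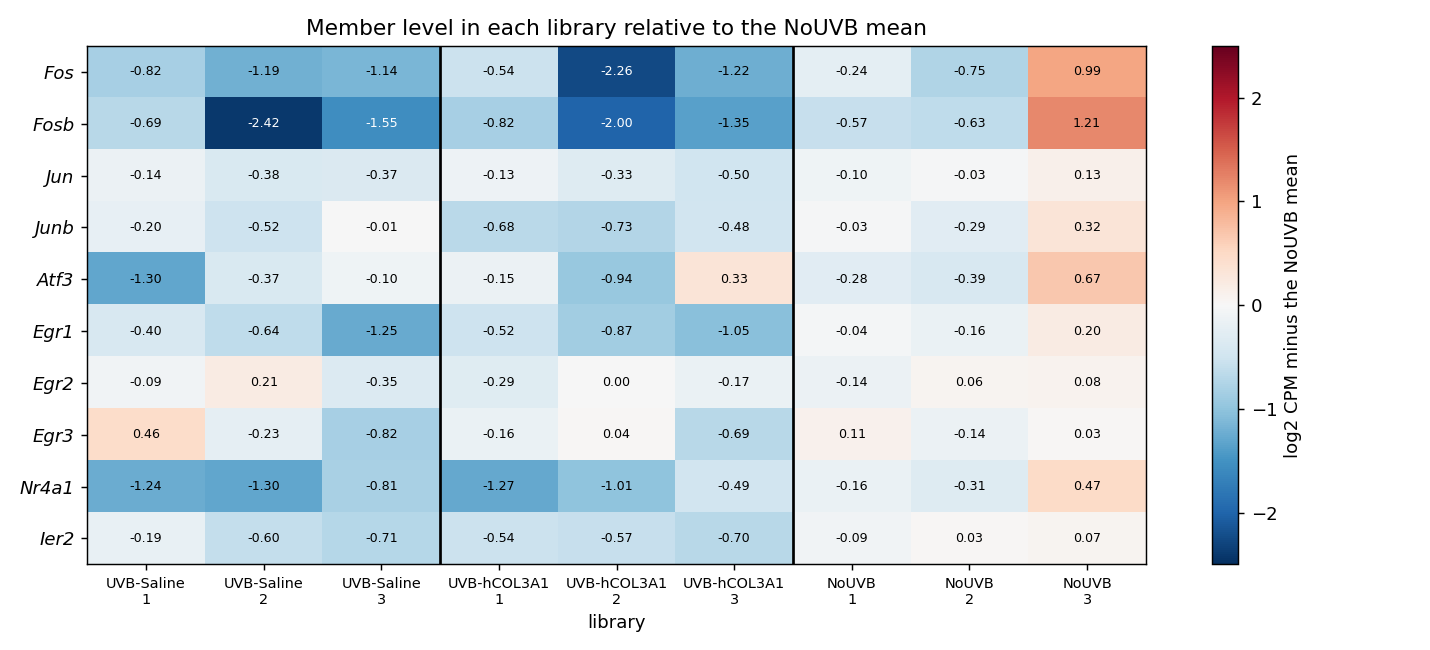
Level of each gene (down the page) in each library (across) as log2 CPM minus the mean log2 CPM of NoUVB, with the value printed in each cell. NoUVB 3 is above 0 for all 10 genes, most for Fosb at 1.21 and Fos at 0.99, and the lowest cells are Fosb in UVB-Saline 2 at -2.42 and Fos in UVB-hCOL3A1 2 at -2.26.

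NoUVB 3 had the highest level of 8 of the 10 genes among the 9 libraries, the exceptions being Egr2 and Egr3, and ranked in the top 3 for 9. NoUVB 1 ranked in the top 3 for 8 genes and NoUVB 2 for 6. No NoUVB library was the lowest for any of the 10. The lowest level fell in UVB-Saline 3 for 4 genes, in UVB-Saline 2 and UVB-hCOL3A1 2 for 2 each, and in UVB-Saline 1 and UVB-hCOL3A1 3 for 1 each. Averaged over the 10 genes, the log2 level relative to NoUVB was -0.46, -0.74 and -0.71 in UVB-Saline libraries and -0.51, -0.87 and -0.63 in UVB-hCOL3A1 libraries, against -0.16, -0.26 and 0.42 in NoUVB libraries. The lowest NoUVB library was thus above the highest irradiated one. Without NoUVB 3 the median log2 difference of the 10 genes was -0.35 in UVB-Saline skin and -0.51 in UVB-hCOL3A1 skin against NoUVB.

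**Figure D4:**
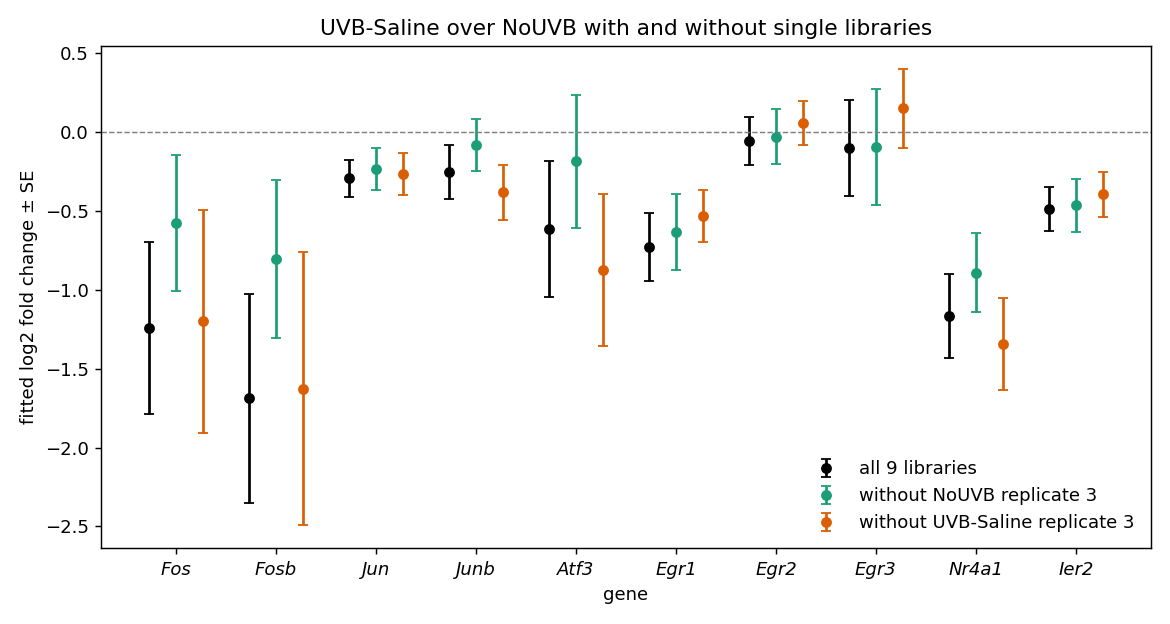
Fitted log2 difference of UVB-Saline from NoUVB for each gene, with bars of 1 SE, from all 9 libraries, without NoUVB 3 and without UVB-Saline 3. For Fosb the difference is -1.69 with all libraries and -0.81 without NoUVB 3, for Ier2 it is -0.49 and -0.47, and for Egr3 it is -0.10 with all libraries and 0.15 without UVB-Saline 3.

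Other AP-1 genes did not lie to one side. Of 12 tested, 7 had a negative log2 difference in UVB-Saline skin and 8 in UVB-hCOL3A1 skin against NoUVB, with medians of -0.08 and -0.07, and edgeR called 0 in any comparison. Jund, a JUN protein made in unstimulated cells, was at 0.04 ± 0.13 and Fosl2, a FOS-related partner, at -0.23 ± 0.13 in UVB-Saline skin. Between the irradiated groups 7 of the 12 were positive, and 3 were higher and 1 lower in UVB-hCOL3A1 skin at an unadjusted p under 0.05, against 5.97% of tested genes higher and 5.32% lower. Fosl1, which encodes the FOS-related FRA-1, had 0.91, 1.79 and 1.94 CPM in UVB-hCOL3A1 skin, against 0.10, 0.41 and 0.76 CPM in UVB-Saline skin, with a log2 difference of 1.83 ± 0.65 (SE, edgeR adjusted p = 0.357). These groups did not overlap, but the level was near or below 1 CPM in most libraries. Jdp2, a repressor that pairs with JUN, and Maf, a large MAF protein, were named after their values were seen. Jdp2 had 13.2, 12.6 and 12.4 CPM in UVB-hCOL3A1 skin, against 5.85, 7.73 and 9.32 CPM in UVB-Saline skin, with no overlap and a log2 difference of 0.74 ± 0.17 (edgeR adjusted p = 0.206). Maf was lower in UVB-Saline skin than in both other groups with no overlap, at -0.43 ± 0.11 against NoUVB (edgeR adjusted p = 0.302), and UVB-hCOL3A1 was 0.39 ± 0.11 above UVB-Saline (edgeR adjusted p = 0.260). Maf was the 1 gene of the list at an unadjusted p under 0.05 in UVB-Saline against NoUVB, where 4.6% of tested genes were lower. Maff, a small MAF protein that can join AP-1 partners, was at -0.47 ± 0.23 in UVB-Saline skin and -0.15 ± 0.23 in UVB-hCOL3A1 skin against NoUVB (edgeR adjusted p = 0.577 and 0.837).

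Among other early transcription factors, 16 of 24 tested genes had a negative log2 difference in UVB-Saline skin against NoUVB, with a median of -0.09, and 17 of 24 in UVB-hCOL3A1 skin, with a median of -0.22, and edgeR called 0. At an unadjusted p under 0.05, 6 were lower and 2 higher in UVB-Saline skin, against 4.6% of tested genes lower and 4.93% higher, and 7 were lower and 2 higher in UVB-hCOL3A1 skin, against 5.52% lower and 6.29% higher. Per1, a clock repressor that is also an early gene of CREB and glucocorticoid signalling, had 65.0, 46.9 and 46.5 CPM in UVB-Saline skin and 39.0, 51.4 and 58.4 CPM in UVB-hCOL3A1 skin, against 104, 96.7 and 113 CPM in NoUVB skin. The irradiated libraries were all well below NoUVB. Its log2 difference was -0.99 ± 0.17 in UVB-Saline skin and -1.08 ± 0.17 in UVB-hCOL3A1 skin (SE, edgeR adjusted p = 0.157 and 0.081).

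Klf4, a factor of the epidermal barrier, was at -0.27 ± 0.10 in UVB-Saline skin and -0.32 ± 0.10 in UVB-hCOL3A1 skin against NoUVB, with no overlap of groups (edgeR adjusted p = 0.437 and 0.238). Myc, a driver of growth, was at -0.36 ± 0.15 and -0.46 ± 0.15, and Btg2, an antiproliferative gene, at -0.26 ± 0.18 and -0.40 ± 0.18 in the same 2 groups. The NR4A relatives had smaller fitted differences than Nr4a1, with Nr4a2 at -0.15 ± 0.25 and Nr4a3 at -0.08 ± 0.55 in UVB-Saline skin. The 95% interval of Nr4a3, -1.33 to 1.17, takes in the fitted value of Nr4a1, while that of Nr4a2, -0.70 to 0.39, does not. The difference between relatives was not tested. Klf6 and Ier3 were at -0.23 ± 0.13 and -0.09 ± 0.19 in UVB-Saline skin. Egr4 and Npas4 had too few counts to be tested. Cebpd and Sik1, named after their values were seen, were at -0.999 ± 0.20 and -0.74 ± 0.15 in UVB-Saline skin (edgeR adjusted p = 0.231 for both), and both genes are known to answer cyclic AMP or glucocorticoids.

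Feedback genes restrain the early response, some by removing phosphates from kinases and some by hastening mRNA decay. The list also holds genes that act in other ways, such as Errfi1, an inhibitor of the EGF receptor. Of 28 tested, 23 had a negative log2 difference in UVB-Saline skin against NoUVB, with a median of -0.21, and 21 in UVB-hCOL3A1 skin, with a median of -0.13, and edgeR called 0. At an unadjusted p under 0.05, 5 were lower and 1 higher in UVB-Saline skin, and 4 were lower and 1 higher in UVB-hCOL3A1 skin, beside shares over all tested genes of 4.6% lower and 4.93% higher for UVB-Saline and 5.52% lower and 6.29% higher for UVB-hCOL3A1. Dusp1, a phosphatase of p38 and JNK, had 58.1, 66.1 and 68.8 CPM in UVB-Saline skin and 67.2, 44.5 and 71.0 CPM in UVB-hCOL3A1 skin, against 87.3, 89.2 and 173 CPM in NoUVB skin. Neither irradiated group overlapped NoUVB, and NoUVB 3 was the highest library. The log2 difference was -0.86 ± 0.28 in UVB-Saline skin and -0.94 ± 0.28 in UVB-hCOL3A1 skin (SE, edgeR adjusted p = 0.408 and 0.262). Dusp6, a phosphatase of ERK, was at -0.27 ± 0.15 in UVB-Saline skin and -0.14 ± 0.15 in UVB-hCOL3A1 skin.

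The 5 other genes whose profile over the 9 libraries was most like the mean profile of the 10, by root mean square difference of centred log2 CPM, were Reln at 0.17, Errfi1 at 0.17, Zfp36 at 0.18, Ahrr at 0.18 and Arrdc3 at 0.18. A gene with no variation would have had 0.37, and of the 10 genes themselves Ier2 was nearest at 0.20 and Fosb farthest at 0.64. These are descriptions of 9 libraries. The 5 most alike genes were picked by these same levels, so their place relative to NoUVB, and to NoUVB 3, follows from the selection. Errfi1, an inhibitor of the EGF receptor, had 58.0, 47.4 and 42.6 CPM in UVB-Saline skin and 41.8, 48.1 and 50.9 CPM in UVB-hCOL3A1 skin, against 72.7, 69.9 and 120 CPM in NoUVB skin. Zfp36, which directs the decay of AU-rich mRNAs, had 55.7, 54.2 and 52.7 CPM in UVB-Saline skin and 52.3, 40.2 and 43.5 CPM in UVB-hCOL3A1 skin, against 53.0, 65.7 and 90.8 CPM in NoUVB skin. Both stand in the feedback list and were highest in NoUVB 3. The log2 difference from NoUVB in UVB-Saline skin was -0.48 for Reln, -0.83 for Errfi1, -0.37 for Zfp36, -0.76 for Ahrr and -0.59 for Arrdc3, and none passed the test.

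Genes upstream of the early response lay on both sides of 0. Of 24 kinases, ligands and factors, 14 had a negative log2 difference in UVB-Saline skin against NoUVB and 14 in UVB-hCOL3A1 skin, with medians of -0.03 and -0.04, and edgeR called 0. The smallest p-values in UVB-Saline skin belonged to Map2k2, an ERK kinase, at 0.27 ± 0.11, to Mapk8, which encodes JNK1, at -0.24 ± 0.10, and to Areg, an EGF receptor ligand, at -0.70 ± 0.31 (edgeR adjusted p = 0.465, 0.498 and 0.521).

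Genes known as targets of AP-1 or EGR factors did not follow the 10 as a group. In UVB-Saline skin against NoUVB, 11 of 21 tested were negative and the median was -0.01. In UVB-hCOL3A1 skin 17 of 21 were positive against NoUVB, with a median of 0.21, and 15 of 21 were positive against UVB-Saline, with a median of 0.16, and edgeR called 0 in each. In UVB-hCOL3A1 against UVB-Saline 7 of 7 fibroblast, 6 of 6 macrophage and 5 of 5 adipocyte markers were also positive. Of these, 5, 4 and 2 were higher at an unadjusted p under 0.05, against 5.97% of all tested genes. Skeletal muscle, endothelium, and smooth muscle and pericyte markers were positive for 5 of 6 each, and mast cell markers for 4 of 5. By contrast 0 of 6 basal and 0 of 7 suprabasal keratinocyte markers, 0 of 6 hair markers and 1 of 5 Schwann cell markers were positive. The part of these markers in the target genes was not tested. Mmp3, a matrix metalloproteinase, had 13.9, 16.5 and 13.4 CPM in UVB-hCOL3A1 skin, against 6.88, 10.4 and 6.61 CPM in UVB-Saline skin and 12.8, 14.4 and 13.9 CPM in NoUVB skin. UVB-Saline was below both other groups with no overlap, at -0.77 ± 0.19 against NoUVB, and UVB-hCOL3A1 was 0.86 ± 0.18 above UVB-Saline (SE, edgeR adjusted p = 0.298 and 0.202). Ccn1, a matrix-associated signal protein, was at -0.85 ± 0.22 in UVB-Saline skin and -0.91 ± 0.22 in UVB-hCOL3A1 skin against NoUVB (edgeR adjusted p = 0.319 and 0.172).

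Most clock and glucocorticoid genes lay below NoUVB in irradiated skin, as the 10 did. Of 19 tested, Per1 among them, 17 had a negative log2 difference in UVB-Saline skin against NoUVB, with a median of -0.45, and 13 were lower at an unadjusted p under 0.05, against 4.6% of all tested genes. Zbtb16, a zinc finger gene induced by glucocorticoids, fell, with 16.4, 17.6 and 14.9 CPM in UVB-Saline skin, against 52.1, 44.8 and 61.7 CPM in NoUVB skin, at a log2 difference of -1.70 ± 0.17 (SE, edgeR adjusted p = 0.0167). Per2, a core clock repressor, also fell, at -1.29 ± 0.16 (edgeR adjusted p = 0.0328), and Tsc22d3, the glucocorticoid-induced leucine zipper gene, was at -1.51 ± 0.26 (adjusted p = 0.182). The call of Zbtb16 was lost without NoUVB 1 or UVB-Saline 2 (edgeR adjusted p = 0.133 and 0.0608), where its log2 difference was -1.72 and -1.76. That of Per2 was lost without any 1 NoUVB library, without UVB-Saline 2 or without UVB-hCOL3A1 3 (edgeR adjusted p = 0.0778 to 0.222), and in limma voom (adjusted p = 0.0554), with log2 differences of -1.35 to -1.25. In UVB-hCOL3A1 skin 15 of 19 were negative against NoUVB, with a median of -0.42 and 12 lower at an unadjusted p under 0.05, against 5.52% of all tested genes, and edgeR called 0. Against UVB-Saline, however, 14 of the 19 were positive in UVB-hCOL3A1 skin, with a median of 0.09, and edgeR called 0. At an unadjusted p under 0.05, 2 were higher, against 5.97% of all tested genes. They were Zbtb16 at 0.95 ± 0.17 and Per2 at 0.68 ± 0.16 (SE, edgeR adjusted p = 0.166 and 0.206). Both had been named for their low UVB-Saline level, which enters this comparison too. Averaged over the 19, the log2 level relative to NoUVB was -0.58, -0.44 and -0.63 in UVB-Saline libraries and -0.51, -0.32 and -0.36 in UVB-hCOL3A1 libraries, against 0.04, -0.09 and 0.05 in NoUVB libraries. In this average NoUVB 3 did not stand out from the other NoUVB libraries, as it did in that of the 10 early genes. Single genes of the list differed in both directions. Tsc22d3 had 93.0, 70.1 and 142 CPM and Fkbp5 had 41.3, 29.5 and 51.0 CPM in NoUVB 1, 2 and 3. Dbp had 50.4, 46.9 and 39.1 CPM and Hlf had 35.6, 33.0 and 27.3 CPM in the same libraries. The sources used here give no time of day of collection, and the part of clock or hormone state in the levels of the 10 was not tested.

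**Figure D5:**
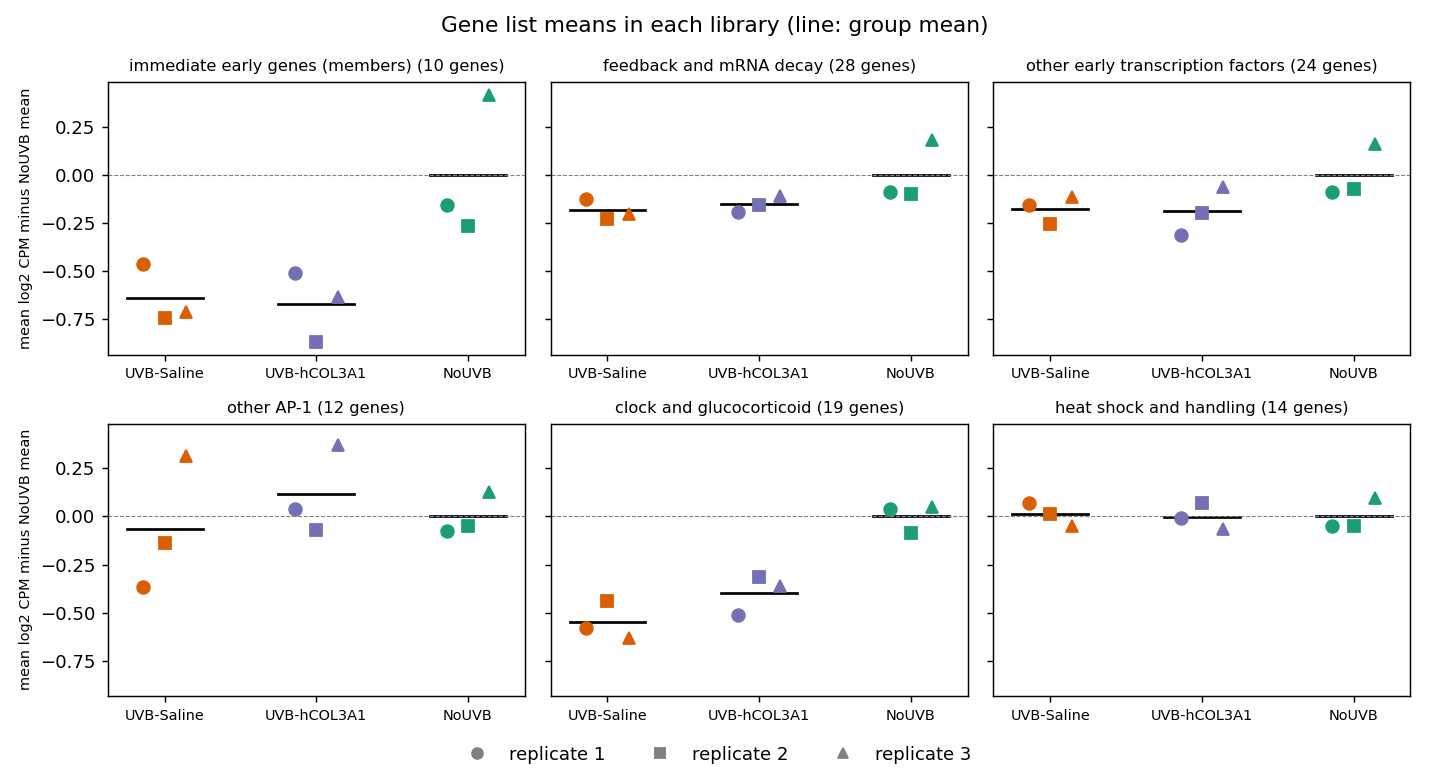
Mean log2 CPM, relative to the NoUVB mean, of 6 gene lists (1 panel each) in each library of UVB-Saline, UVB-hCOL3A1 and NoUVB skin, with a line at each group mean. The 10 immediate early genes lie at -0.87 to -0.46 in irradiated libraries and the clock and glucocorticoid genes at -0.63 to -0.32, while the heat shock genes lie at -0.07 to 0.10 in all 9.

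Heat shock and handling genes, some of which are known to be induced by stress to the tissue, lay as a list close to NoUVB in both irradiated groups. Of 14 tested, 8 were negative in UVB-Saline skin against NoUVB and 7 in UVB-hCOL3A1 skin, with medians of -0.03 and -0.0043, and edgeR called 0. The smallest p-values in UVB-Saline skin were those of Hspa5, a chaperone of the endoplasmic reticulum, at 0.37 ± 0.10, Hspd1, a mitochondrial chaperone, at 0.26 ± 0.10, and Hspa1b, an inducible chaperone, at 0.16 ± 0.12 (edgeR adjusted p = 0.319 for Hspa5). The mean log2 level of the list in NoUVB 3 was 0.10, against -0.05 in both other NoUVB libraries, and single genes differed. Hsph1 had 19.3, 15.4 and 28.9 CPM and Hspa1a had 23.9, 20.0 and 30.7 CPM in NoUVB 1, 2 and 3. Hspa1b had 62.5, 55.5 and 58.0 CPM and Bag3 had 28.1, 32.1 and 27.5 CPM in the same libraries.

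Markers of some cell types differed from NoUVB in irradiated skin, not always alike in both irradiated groups. Their part in the differences of the 10 genes was not tested. All 5 of 5 adipocyte markers had a negative log2 difference in UVB-Saline skin against NoUVB, with a summed level of 241 to 331 CPM in UVB-Saline libraries and 391 to 591 CPM in UVB-hCOL3A1 libraries, against 294 to 730 CPM in NoUVB libraries. All 6 of 6 hair shaft and inner root sheath markers were negative in both irradiated groups, with sums of 1145 to 8423 CPM in UVB-Saline libraries and 2411 to 5887 CPM in UVB-hCOL3A1 libraries, against 5840 to 11261 CPM in NoUVB libraries. All 5 of 5 Schwann cell markers were also negative in both, with sums of 64.0 to 84.4 CPM in UVB-Saline libraries and 58.5 to 73.9 CPM in UVB-hCOL3A1 libraries, against 78.5 to 155 CPM in NoUVB libraries. All 6 of 6 macrophage markers were positive in UVB-hCOL3A1 skin against NoUVB, at 354 to 461 CPM in UVB-hCOL3A1 libraries and 152 to 368 CPM in UVB-Saline libraries, against 237 to 255 CPM in NoUVB libraries. Basal keratinocyte markers summed to 2277 to 4427 CPM in UVB-Saline libraries and 2233 to 2736 CPM in UVB-hCOL3A1 libraries, against 2467 to 2625 CPM in NoUVB libraries, which overlap. All 7 of 7 fibroblast markers were negative in UVB-Saline skin against NoUVB, with a median log2 difference of -0.18 and sums of 4254 to 4467 CPM in UVB-Saline libraries and 5297 to 6532 CPM in UVB-hCOL3A1 libraries, against 4625 to 5570 CPM in NoUVB libraries. Among them Dcn, named after its value was seen, was at -1.05 ± 0.22 (edgeR adjusted p = 0.266). All 6 of 6 smooth muscle and pericyte markers were negative there too, with sums of 312 to 385 CPM in UVB-Saline libraries and 342 to 426 CPM in UVB-hCOL3A1 libraries, against 367 to 457 CPM in NoUVB libraries. In UVB-hCOL3A1 skin against NoUVB 5 of 6 skeletal muscle markers were positive, with a median of 1.07 and sums of 782 to 1273 CPM in UVB-hCOL3A1 libraries and 197 to 634 CPM in UVB-Saline libraries, against 282 to 985 CPM in NoUVB libraries. All 5 of 5 mast cell markers were positive in that comparison, with sums of 116 to 162 CPM in UVB-hCOL3A1 libraries and 78.3 to 130 CPM in UVB-Saline libraries, against 91.0 to 117 CPM in NoUVB libraries. In UVB-hCOL3A1 skin against NoUVB 5 of 7 fibroblast markers were positive, with a median of 0.15. In the same comparison 3 of 5 adipocyte and 4 of 6 smooth muscle and pericyte markers were negative, with medians of -0.08 and -0.02. Suprabasal keratinocyte markers had medians of 0.07 in UVB-Saline skin and -0.26 in UVB-hCOL3A1 skin against NoUVB, and endothelium markers -0.25 and -0.06. edgeR called 0 of the genes in these lists.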

How the data were processed

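Skin libraries (3 UVB-Saline, 3 UVB-hCOL3A1 and 3 NoUVB) were made from total RNA and read as 150 bp pairs, per the labels' protocols, which also give groups and replicate numbers. The deposited table holds estimated counts, made by the authors, of 57180 genes. The submitters' processing notes list RSEM 1.3.3 and STAR 2.7.11b beside Bowtie2 2.5.4, fastp 0.23.4 and DESeq2 1.44.0, with build GRCm39. The sources used here state neither the role of each tool nor the annotation or strand setting, and without strand, a gene's reads cannot be told from those of an antisense or overlapping neighbour. Between 11.1% and 14.0% of values per library were not whole, and values were rounded before testing. No pair of libraries held identical values, and replicates differed beyond counting noise (chi-square of 5.74 to 162 per degree of freedom), so none was treated as a duplicate of another. The chi-square took in all genes with counts, Rn18s-rs5 among them. Its highest value was between NoUVB 1 and NoUVB 2, where Rn18s-rs5 took 55.3% and 7.71% of counts. Such differences do not show that the libraries came from separate animals.

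Tests used edgeR 4.0.16 under R 4.3.3. filterByExpr kept 17168 genes, TMM scaled them, and 1 robust quasi-likelihood fit over the 3 groups (6 residual degrees of freedom) gave 3 two-sided contrasts with Benjamini-Hochberg adjustment over all tested genes and a threshold of 0.05. SE and 95% intervals of log2 differences are from this fit, and spread uses log2 CPM with a prior count of 2. The procedure was tested on simulated data drawn with the fitted spread of each gene. Per contrast it called 51.5% to 57% of planted 2-fold and 91% to 93.9% of planted 4-fold differences. It also called 8 to 13 genes without a planted difference, so many 2-fold differences would be missed at this threshold. limma 3.58.1 (voom) and DESeq2 1.42.0 were alternatives. Lengths per gene come from the GENCODE M21 annotation, which is of another build than the counts, so only lengths were used. Upstream sequences are RefSeq's.

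The members and all gene lists were chosen with earlier results of these data known. Named besides the 10 were 16 set early and feedback genes, up to 3 genes per further list with the smallest p, and the 5 most alike in profile, leaving out predicted genes. The result of 1 gene selected this way is not reported here. Counting error adds to the spread of the rarest of the 10, Atf3, which had 31 counts in its lowest library. The fitted variation of Atf3 beyond counting error was also large, at 0.354 as a coefficient of variation, against 0.164 for the median gene.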

Additional observations from a re-analysis of the deposited data

How the results depend on the processing

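Of 570 values of the 10 genes under 19 alternatives, 533 kept their direction and their side of the threshold, 19 came to pass it and 18 turned sign, all of these when 1 library was left out. Genes called in UVB-Saline against NoUVB (3, all lower) were 100 with library size alone (61 higher and 39 lower), 73 without the filter on low counts, 61 with the replicate block, 100 with DESeq2 and 0 to 12 when 1 library was left out. Of the 10 genes 2 (Fos and Fosb), 1, 1 and 1 (Nr4a1) were among them under the first 4. In UVB-hCOL3A1 against UVB-Saline the genes called (0) were 30, 106, 74 and 173 under the same 4, and 0 to 78 with 1 library left out, with 0 of the 10 under each. In UVB-hCOL3A1 against NoUVB the genes called (7, all higher) were 159 (115 higher and 44 lower), 178, 118 and 269 under the same 4, 1 with non-robust dispersion, 407 with only the 2 groups fitted, 0 with limma voom and 0 to 242 with 1 library left out. Of the 10 genes 2 (Fos and Fosb), 2 (Junb and Ier2), 2 (Junb and Nr4a1), 3 and, with 2 groups fitted, 2 (Egr1 and Ier2) were called, and 0 to 2 with 1 library left out. DESeq2 started from 35529 genes.

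The replicate numbers are not stated to pair samples. Deviations of same-numbered libraries correlated at 0.02 to 0.41. The highest was between UVB-Saline 3 and UVB-hCOL3A1 3, which stood apart on the first principal component, and the other pairs were at 0.02 to 0.17. Each library was also set against all 3 libraries of each other group, 1 of which shared its number, and 6 of 9 correlated best with their own number. In edgeR the replicate block gave Nr4a1 an adjusted p of 0.0125 in UVB-Saline against NoUVB.

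With 1 library left out, the log2 difference of UVB-hCOL3A1 from UVB-Saline ranged from -0.59 to 0.21 for Fos, -0.24 to 0.64 for Fosb, -0.0966 to 0.0897 for Jun, -0.26 to 0.12 for Egr1, -0.204 to 0.0726 for Egr2, -0.38 to 0.25 for Egr3, -0.0124 to 0.406 for Nr4a1 and -0.198 to 0.0542 for Ier2. That of UVB-Saline from NoUVB ranged from -0.224 to 0.0545 for Egr2 and -0.49 to 0.15 for Egr3, and that of UVB-hCOL3A1 from NoUVB from -0.57 to 0.18 for Atf3. Library size alone moved the median of all genes to -0.12 in UVB-hCOL3A1 against NoUVB, where the 10 genes had a median of -0.74. The cause of these shifts was not tested. Spread within groups was widest for Fosb, Fos and Atf3, and counts were fewest for Atf3.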
